A study of Mus musculus with 2 samples.

Results

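Tight junctions seal the space between neighbouring epithelial or endothelial cells. Claudins are the membrane proteins that form their strands and set which ions pass, occludin (*Ocln*) is a further strand protein, and ZO-1 (*Tjp1*) is the cytoplasmic scaffold that ties the strands to actin. In the cochlear duct such barriers keep the potassium-rich endolymph apart from the perilymph, and in the stria vascularis they separate the layers that generate the endocochlear potential. The 9 genes described here are *Cldn18*, *Cldn5*, *Cldn11*, *Cldn9*, *Cldn3*, *Cldn4*, *Cldn7*, *Ocln* and *Tjp1*. They were taken by symbol as all probe sets that the platform annotation pairs with only that gene. All 9 were measured, by 13 of the 22626 probe sets that are not controls, and they are 9 of 12393 measured genes.

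The RNA came from cochleae at E18.5, dissected with the otic capsule and without vestibular tissue, from embryos of heterozygous matings on a C57BL/6J background. *Igf1* was disrupted by targeting in the null embryos, most of which would die soon after birth. Cochleae of several embryos were pooled, and 1 array per title was used here. Title and source name contradict each other on both: the title reads +/+ where the source name reads Igf-1 -/-, and the reverse, so the genotype behind either is not settled. Here "the +/+ array" and "the -/- array" stand for the titles alone, differences are -/- minus +/+, and every sign turns if the source names hold. Without replicates there is no test, and precision is limited by the number of arrays.

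The deposited values are levels on the log2 scale, and the median difference of all probe sets, 0.022, was subtracted from each difference. Probe sets were placed in a low, a middle and a high class of mean level, with boundaries at 5.06 and 7.68. The pooled SD between differences of probe sets of the same gene was 1.18 in the low, 0.27 in the middle and 0.10 in the high class, and it is the only repeat measurement in these data. It compares readings of the same RNA and holds no variation between embryos or pools, so it gives no error for a difference between the arrays. A difference past 1 log2 unit in either direction was found for 32.1% of probe sets in the low, 1.43% in the middle and 0.345% in the high class. All 3 probe sets of *Igf1*, the gene disrupted in the null, were lower on the -/- array, with differences of -0.42 to -0.75, and none was near 0 on either array. Markers of the cochlear duct were present on both arrays, with the tectorial membrane gene *Tecta* at 9.78 on the +/+ array and 9.28 on the -/- array, and the hair cell gene *Myo7a* at 6.89 and 6.91.

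The start regions of *Cldn18*, *Cldn3*, *Cldn4* and *Cldn5* are shown first, each as the 250 bases before a start site in RefSeq on GRCm38.p6. *Cldn18* has 2 such sites. The gene is known for alternative first exons used in lung and in stomach. *Cldn3* and *Cldn4* are direct neighbours among the protein-coding genes of chromosome 5, and *Cldn5* is the member with a difference in the opposite direction. Capitals mark matches on either strand to the letters searched, which were AACCNGTT (Grainyhead-like), CACCTG (an E-box bound by snail-type repressors), TATAAA (a core promoter box), GGGCGG (GC box), CTCAAG (a core site of the lung and thyroid factor NKX2-1), TGANTCA (AP-1) and TGTTTNC (forkhead).
Cldn18, chr9:99717268-99717517, minus strand: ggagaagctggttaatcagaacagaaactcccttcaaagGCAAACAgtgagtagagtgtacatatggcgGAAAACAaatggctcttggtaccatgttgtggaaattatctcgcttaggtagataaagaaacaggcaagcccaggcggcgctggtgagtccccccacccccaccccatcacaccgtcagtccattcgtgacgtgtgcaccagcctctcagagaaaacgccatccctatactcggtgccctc
Cldn18, chr9:99710064-99710313, minus strand: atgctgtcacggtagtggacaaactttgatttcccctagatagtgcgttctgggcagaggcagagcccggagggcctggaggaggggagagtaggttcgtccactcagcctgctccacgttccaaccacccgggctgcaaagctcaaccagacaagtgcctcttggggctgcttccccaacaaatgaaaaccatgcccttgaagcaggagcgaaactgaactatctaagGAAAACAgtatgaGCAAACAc
Cldn3, chr5:134985964-134986213, plus strand: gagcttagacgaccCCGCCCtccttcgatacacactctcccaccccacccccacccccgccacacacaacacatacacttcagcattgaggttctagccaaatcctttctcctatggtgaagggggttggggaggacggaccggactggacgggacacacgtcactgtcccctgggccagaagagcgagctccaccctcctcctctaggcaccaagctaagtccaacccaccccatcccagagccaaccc
Cldn4, chr5:134946935-134947184, minus strand: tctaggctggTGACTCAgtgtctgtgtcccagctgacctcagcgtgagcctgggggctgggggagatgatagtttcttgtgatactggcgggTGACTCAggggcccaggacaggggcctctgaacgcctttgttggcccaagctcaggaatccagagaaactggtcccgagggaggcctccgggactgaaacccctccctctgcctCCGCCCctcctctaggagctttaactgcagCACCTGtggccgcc
Cldn5, chr16:18776597-18776846, plus strand: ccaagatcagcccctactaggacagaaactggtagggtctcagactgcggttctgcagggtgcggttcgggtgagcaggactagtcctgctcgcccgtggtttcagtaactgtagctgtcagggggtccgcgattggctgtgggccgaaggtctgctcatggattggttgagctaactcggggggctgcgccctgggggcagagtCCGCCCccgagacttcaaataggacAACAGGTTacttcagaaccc

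Both *Cldn18* windows held the forkhead letters, at 2 places each, and none of the other letters. Of all 32851 windows of this length, 17.8% held the forkhead letters. The *Cldn4* window held the AP-1 letters at 2 places, against 6.75% of all windows, a GC box and an E-box, against 32.7% and 17.2%. The *Cldn3* window held a GC box only, and the *Cldn5* window a GC box and the Grainyhead-like letters, the latter found in 1.79% of all windows. The *Cldn11* window, not shown, held none of the letters searched. The TATAAA letters, held by 12.4% of all windows, were in none of the 11 windows of the members. The NKX2-1 letters, held by 13.3% of all windows, were in 1 of the 11, a window of *Ocln*. No matches overlapped, 8 of the 9 members had a window, and a match describes the letters and not a site in use.

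Of the 9 members, 7 were lower on the -/- array and 2 were higher, against 49.5% of all genes lower, or 48.2% without the 292 genes listed at 0 on both arrays, which count as lower through the centring alone. This counts *Cldn7* as higher and *Ocln* as lower, although both lay close to 0. The median difference of the members was -0.27, and that of all genes was 0.0028. *Cldn18* was the only member past 1 log2 unit, where 9.6% of all genes passed in either direction and 4.07% passed downwards. Of the 13 probe sets, 11 were lower and 2 were higher, against 50.0% of all probe sets lower. In bulk tissue, fewer cells of a type and less RNA per cell cannot be told apart, and this applies to each difference below.

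**Figure D1:**
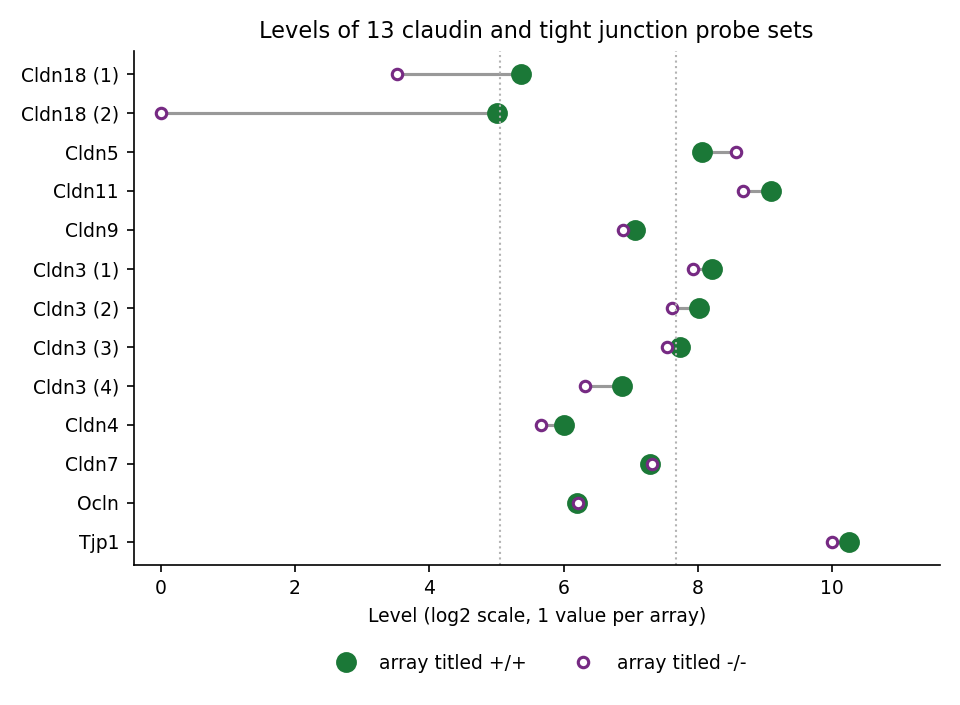
Level on the log2 scale of the 13 probe sets on the +/+ array (large filled green) and the -/- array (small open purple), joined by a line, with 1 value per array and dotted lines at the class boundaries of 5.06 and 7.68. Probe sets of the same gene are numbered by falling level. *Cldn18* has the longest lines, *Cldn5* is the member with a clear line to the right, and the symbols of *Cldn7* and *Ocln* coincide.

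*Cldn18*, a claudin of lung and stomach epithelium that also occurs in epithelia of the inner ear, showed the largest difference of the 9 genes. Its stronger probe set was at 5.37 on the +/+ array and 3.51 on the -/- array, a log2 difference of -1.88 or a 3.68-fold lower level. Its weaker probe set was at 5.005 on the +/+ array and was listed at 0 on the -/- array, so no fold is given for it. Both probe sets were thus lower on the same array, and both lie in the low level class. There, 10.97% of probe sets differed by at least as much as the stronger one. Its size depends on low values, since it was -1.28 with every value under the 25th percentile set to that percentile, and -3.45 with the 2 probe sets averaged, 1 of them listed at 0. Of the 3057 genes read by 2 probe sets, at any level, 0.556% had both below -1. The share among genes of low level, where differences past 1 are common, was not computed. *Cldn18* is among the genes that the study selected from its own arrays, so its size here is not independent evidence.

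Markers of lung epithelium, strial marginal cells and choroid plexus were mostly lower on the -/- array too. Those of squamous epithelium were mostly higher, and those of general epithelium had a median close to 0, at 0.030. These and the choroid plexus are given below. Of 13 measured genes of lung epithelium, 11 were lower on the -/- array, 6 of them below -1, with a list median of -0.76, or -0.19 over the 3 above the median level. Their summed level was 11.75 on the +/+ array and 9.95 on the -/- array, and none was listed at 0. The surfactant gene *Sftpc* was at 10.94 and 7.47, and the club cell genes *Scgb3a2* and *Scgb1a1* at 8.40 and 4.76 and at 6.45 and 1.15, in that order of arrays. On the +/+ array the summed level rests mostly on *Sftpc*. *Abca3*, the lipid transporter of surfactant bodies, differed by -0.19, *Hopx* by 0.034 and the surfactant gene *Sftpb* by -1.42. The *Abca3* value is also the median over the 3 genes above the median level. Of its 3 probe sets 2 were higher, with a mean of 0.29 in the opposite direction. *Sftpa1*, at -4.13, and *Ager*, at -3.75, were also below -1. These and *Scgb1a1* lie in the low level class, where 31.7% of genes pass 1 in either direction. The 2 probe sets of *Sftpa1* had opposite signs, with a mean of -1.72. All 6 measured genes of strial marginal cells, which secrete potassium into the endolymph, were lower too. Their median was -1.72, with 4 below -1, all 4 in the low level class, where 31.7% of genes pass 1 in either direction. The median was -0.72 with low values raised and -0.21 from the 1 gene above the median level. Their summed level was 10.42 and 10.08, and none was listed at 0. The potassium channel gene *Kcnq1* was at 5.81 and 3.42, its partner *Kcne1* at 4.43 and 0.72, and the cotransporter gene *Slc12a2* at 10.08 and 9.89. The summed level rests mostly on *Slc12a2* and is not a measure of marginal cells as such. The other two below -1 were the chloride channel subunit gene *Bsnd* at -1.15 and the homeobox gene *Lmx1a* at -2.30. The nuclear receptor gene *Esrrb*, which directs marginal cell development, was at 7.24 and 6.66. The part of either set of markers in the *Cldn18* values was not tested.

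**Figure D2:**
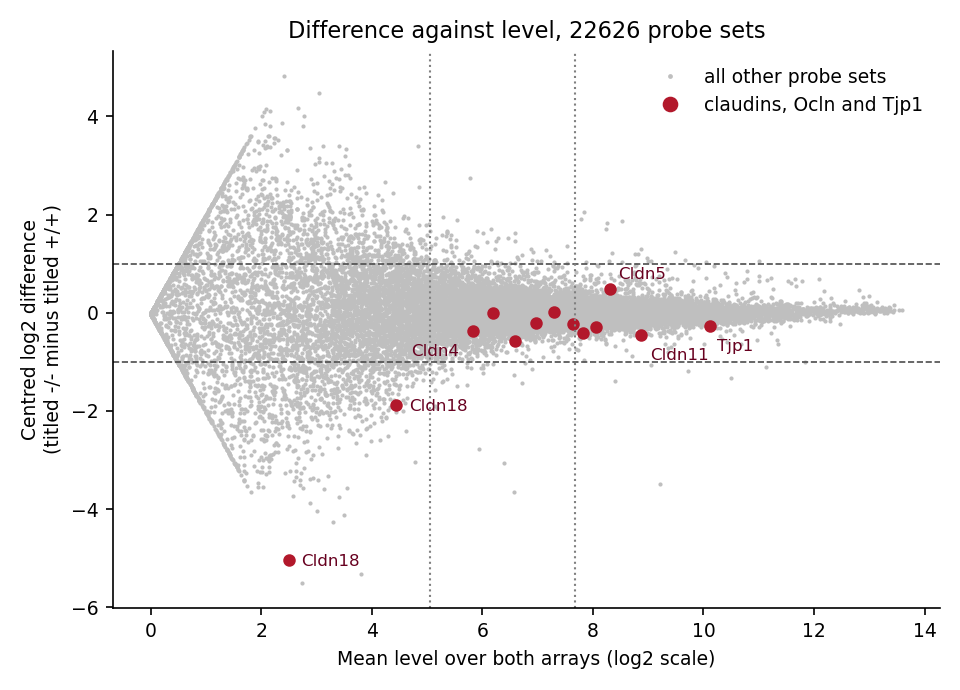
Mean level of both arrays (horizontal) and centred log2 difference (vertical) of every probe set, the 13 probe sets of the members in red, dashed lines at 1 and -1 and dotted lines at the level class boundaries. Both *Cldn18* points lie in the wide spread at low level, one of them near its lower edge and listed at 0 on the -/- array, while *Cldn5*, *Cldn11*, *Cldn3* and *Tjp1* lie within the narrower spread at high level, away from its centre.

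*Cldn5*, the main claudin of endothelium and of blood-tissue barriers such as that of the stria, was higher on the -/- array. Its single probe set was at 8.05 on the +/+ array and 8.56 on the -/- array, a difference of 0.49 or a ratio of 1.40. In the high class, 2.16% of probe sets differed by at least as much. Other endothelial genes also tended to higher values on this array, with 10 of 13 higher, 3 lower, none past 1 and a median of 0.13. Their summed level was 11.47 on the +/+ array and 11.53 on the -/- array, and none was listed at 0. The endothelial junction gene *Esam* was at 7.85 and 8.21, a difference of 0.34. *Egfl7*, a secreted endothelial protein, and *Eng*, a TGF-beta co-receptor, differed by 0.15 and -0.13, and the sialomucin gene *Emcn* by -0.29. The *Cldn5* difference was larger than 12 of the 13, the exception being the adhesion gene *Pecam1* at 0.60. The part of endothelial cell number in it was not tested.

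*Cldn11* forms the strands of strial basal cells and of central myelin, and mice without it are deaf. Its single probe set was at 9.09 on the +/+ array and 8.67 on the -/- array, a difference of -0.45. In the high class, 2.68% of probe sets differed by at least as much. Glial genes moved in both directions. Of 7 measured genes of oligodendrocytes, 3 were lower and 3 higher, with 2 above 1, and *Mobp* had a listed value of 0 on each array. The median of the 7 was -0.022 with *Mobp*, whose difference is the centring alone, and 0.19 without it. The myelin gene *Mbp* was at 9.71 and 9.01, *Cnp* at 9.82 and 9.62 and the lineage gene *Olig1* at 6.22 and 7.54. The 2 above 1 were *Olig1*, at 1.297, and *Mog*. *Mog*, also a myelin gene, was listed at 0 on the +/+ array. Of 5 Schwann cell genes, 4 were lower, 1 of them below -1, with a median of -0.25. The 1 below -1 was the connexin gene *Gjb1*, at 1.85 on the +/+ array and listed at 0 on the -/- array. *Pmp22* differed by 0.093, *Sox10* by -0.25 and *Mal* by -0.51. The summed level was 10.86 and 10.58 for oligodendrocytes and 11.52 on both arrays for Schwann cells. The oligodendrocyte sum rests mostly on *Mbp* and *Cnp*, while *Mobp* was at 0 on both arrays and *Mog* at 0 and 1.09. It is not a measure of oligodendrocytes as such. Genes of the leptomeninges, whose outer layer also uses *Cldn11*, were higher in 5 of 8, with 2 above 1, 1 below and a median of 0.31, which turned to -0.070 with probe sets averaged. Their summed level was 12.10 and 12.61, none was listed at 0, and *Ptgds*, *Zic1* and *Foxc1* differed by 0.60, 0.98 and -0.37. The 2 above 1 were the transporter genes *Slc6a13*, at 1.63 in the middle level class, and *Slc22a6*, at 1.19 in the low class, and the 1 below -1 was the peptidase gene *Dpp4* at -1.22, also in the low class. The 2 probe sets of *Slc22a6* had opposite signs, with a mean of -0.16. The part of glial or meningeal cells in the *Cldn11* value was not tested.

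**Figure D3:**
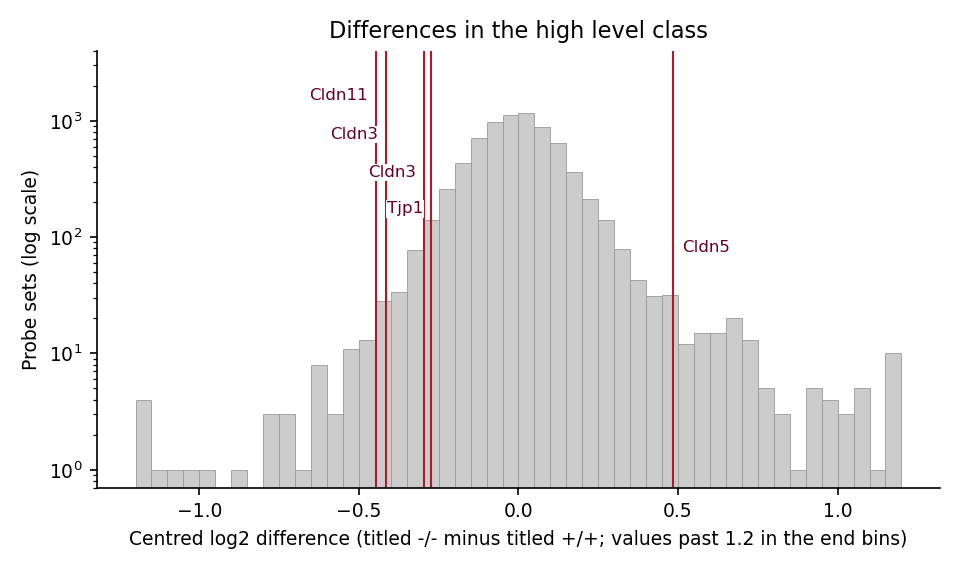
Number of probe sets (log scale) in the high level class by centred log2 difference, in bins of the histogram, with values past 1.2 placed in the end bins. Red lines mark the 5 probe sets of the members in this class, with *Cldn11*, *Cldn3* and *Tjp1* on the left flank and *Cldn5* on the right.

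*Cldn3* and *Cldn4* are sealing claudins of simple epithelia, and both bind the enterotoxin of Clostridium perfringens. All 4 probe sets of *Cldn3* were lower on the -/- array. The strongest was at 8.20 on the +/+ array and 7.93 on the -/- array, a difference of -0.30. The others were at 8.01 and 7.62, at 7.74 and 7.53, and at 6.87 and 6.32. The mean difference was -0.38 with an SD of 0.15 over these 4 probe sets, which measure the same RNA and are not replicates. Of the 447 genes with 4 probe sets, 13.2% had all of them lower. The second and the next strongest end in _x_at, a mark for probes that can bind other transcripts, and the other 2 do not. In the high class, 6.74% of probe sets differed by at least as much as the strongest. *Cldn4* was at 6.01 and 5.67, a difference of -0.36 in the middle class, where 21.4% of probe sets differed by at least as much. Both neighbours were thus lower on the same array.

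*Cldn9* occurs in the sensory epithelium of the inner ear, and its mutation in mice causes hair cell loss and deafness. It was at 7.06 on the +/+ array and 6.88 on the -/- array. The difference of -0.20 was below the SD of its class, and 44.3% of probe sets there differed by at least as much. *Cldn6*, its direct neighbour on chromosome 17 and a claudin of embryonic epithelia, was at 7.43 on both arrays. *Cldn7*, a claudin of the lateral membrane that binds EpCAM, was at 7.29 and 7.32, a difference of 0.0080. *Ocln* was at 6.20 and 6.21, a difference of -0.011, and at least 96.8% of probe sets in the class differed by at least as much as either of these genes. The direction of *Cldn7* and of *Ocln*, though counted above, is not read as a result. That of *Cldn7* turned with low values raised and that of *Ocln* without centring. *Tjp1* was at 10.25 and 10.00, a difference of -0.27. In the high class, 8.15% of probe sets differed by at least as much.

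Other epithelial markers moved in both directions. Of 15 measured genes of general epithelium, 10 were higher and 5 lower on the -/- array, none past 1, with a median of 0.030. Their summed level was 11.51 on the +/+ array and 11.50 on the -/- array, and none was listed at 0. The EpCAM gene *Epcam* differed by 0.12, the keratin gene *Krt8* by 0.12 and *Spint2*, an inhibitor of membrane proteases, by 0.17. E-cadherin, *Cdh1*, was at 9.14 and 8.74, a difference of -0.43. Of 10 genes of squamous epithelium, 7 were higher, 3 lower and 1 below -1, with a median of 0.24, a summed level of 10.43 and 10.76 and *Krt13* listed at 0 on the +/+ array. The 1 below -1 was *Krt4* at -1.38, in the low class. The keratin genes *Krt5* and *Krt15* differed by 0.18 and 0.67, and the desmosome gene *Perp* by 0.32. Of 7 genes of the choroid plexus, an epithelium with its own claudins, 6 were lower, 4 of them below -1, with a median of -1.003. This was -0.19 with low values raised and -0.59 over the 2 genes above the median level. Their summed level was 12.62 and 11.82, and none was listed at 0. Transthyretin, *Ttr*, was at 12.32 and 11.34, the water channel gene *Aqp1* differed by -0.18 and the folate receptor gene *Folr1* by -0.52. The summed level rests mostly on *Ttr* and is not a measure of choroid plexus cells as such. Below -1 beside *Ttr* were *Kl* at -1.48, *Kcne2* at -1.32 and *Slc4a5* at -1.74, all in the low class. The 1 gene of this list that was higher was *Otx2* at 0.96, also in the low class. Of the sensory epithelium, 6 of 12 hair cell genes and 6 of 9 supporting cell genes were lower, with medians of -0.038 and -0.12. The hair cell genes had a summed level of 9.51 and 9.46, with 1 above 1, the channel gene *Tmc1* at 1.94, and 1 below -1, the prestin gene *Slc26a5*, which was listed at 0 on the -/- array. Both lie in the low class, and 1 of the 3 probe sets of *Tmc1* was lower. *Myo6* and *Atoh1* differed by -0.18 and -0.21. The supporting cell genes had a summed level of 11.59 and 11.33, with none past 1 or listed at 0, and *Fgfr3*, *Tecta* and *Tectb* differed by 0.11, -0.52 and -0.64. The part of these cell types in the claudin values was not tested.

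Of the other claudins, 11 of 15 were measured, 6 lower and 5 higher on the -/- array, with a median of -0.024. The 2 past 1 were both higher and both in the low level class, where the share of all genes past 1 is given above. *Cldn2*, a cation pore, was at 1.77 on the +/+ array and 3.20 on the -/- array, and the mean over its 2 probe sets was -0.29, in the opposite direction. *Cldn19*, a kidney claudin, was listed at 0 on the +/+ array and was at 1.36 on the -/- array. *Cldn16*, its partner in the kidney, was at 0.19 and 1.06. In the middle class, *Cldn1* of the epidermal barrier was at 7.05 and 6.97, *Cldn8* at 6.90 and 6.60 and *Cldn10*, an ion pore, at 6.60 and 6.44. These 3 and *Cldn6* differed by -0.024 to -0.31, with *Cldn8* at -0.31. The SD between probe sets in this class was 0.27, which gives no error for these differences. *Cldn13*, *Cldn15* and *Cldn23* lay in the low class and differed by 0.23, -0.19 and 0.17. By its strongest probe set, no claudin above the low class differed by more than 0.49.

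Of 6 tight junction genes linked to deafness 5 were measured, *Cldn9* and *Cldn11* of the members among them. All 5 were lower on the -/- array, against 49.5% of all genes, with none past 1 and a median of -0.45. *Cldn9*, *Cldn14* and *Ildr1* differed by less than the SD of their class, and 2 of the 5 lay in the low class. Exceeding that SD would not set a gene apart, since it gives no error between the arrays. *Cldn14*, whose loss causes deafness with hair cell death, was at 4.71 and 4.65, a difference of -0.084. Tricellulin, *Marveld2*, which seals the corners where 3 cells meet, was at 5.74 on the +/+ array and 5.20 on the -/- array, a difference of -0.56. *Ildr1*, which recruits tricellulin to these corners, was at 5.22 and 4.28, a difference of -0.96 in the low class, whose SD was 1.18. *Lsr*, a relative of *Ildr1* with the same role, was at 6.43 and 6.49.

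Of 10 measured membrane proteins of tight junctions beside claudins and occludin, 5 were lower and 5 higher. Of these, 1 was past 1 in each direction, and the median was -0.048. *Marveld2*, *Ildr1*, *Lsr* and *Esam*, given above, are among the 10. *Jam2* counts as higher, at 0.38, while 3 of its 4 probe sets were lower, with a mean of -0.38. The 2 past 1 were *Marveld3*, listed at 0 on the +/+ array and at 1.98 on the -/- array, and *Igsf5*, at 3.47 and 2.47, both in the low class. The junctional adhesion molecule genes *F11r* and *Jam3* differed by -0.14 and -0.16. Of 17 measured plaque and polarity proteins, 12 were higher and 5 lower, with none past 1 and a median of 0.085. The lowest was the polarity gene *Pard6b* at -0.93 in the low class. *Ybx3*, a factor that binds ZO-1, was at 10.79 and 10.89, and the polarity kinase gene *Prkci* was at 9.05 and 9.04. *Mpdz*, a scaffold with many PDZ domains, was at 8.77 and 8.86. Among the 5 lower was *Tjp3*, the gene of the related ZO-3, at 5.51 and 5.25, a difference of -0.28 in the middle class. *Tjp1* thus had a difference of the same sign as *Tjp3* and of opposite sign to the median of the plaque and polarity proteins. The difference between *Tjp1* and that median was not tested.

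**Figure D4:**
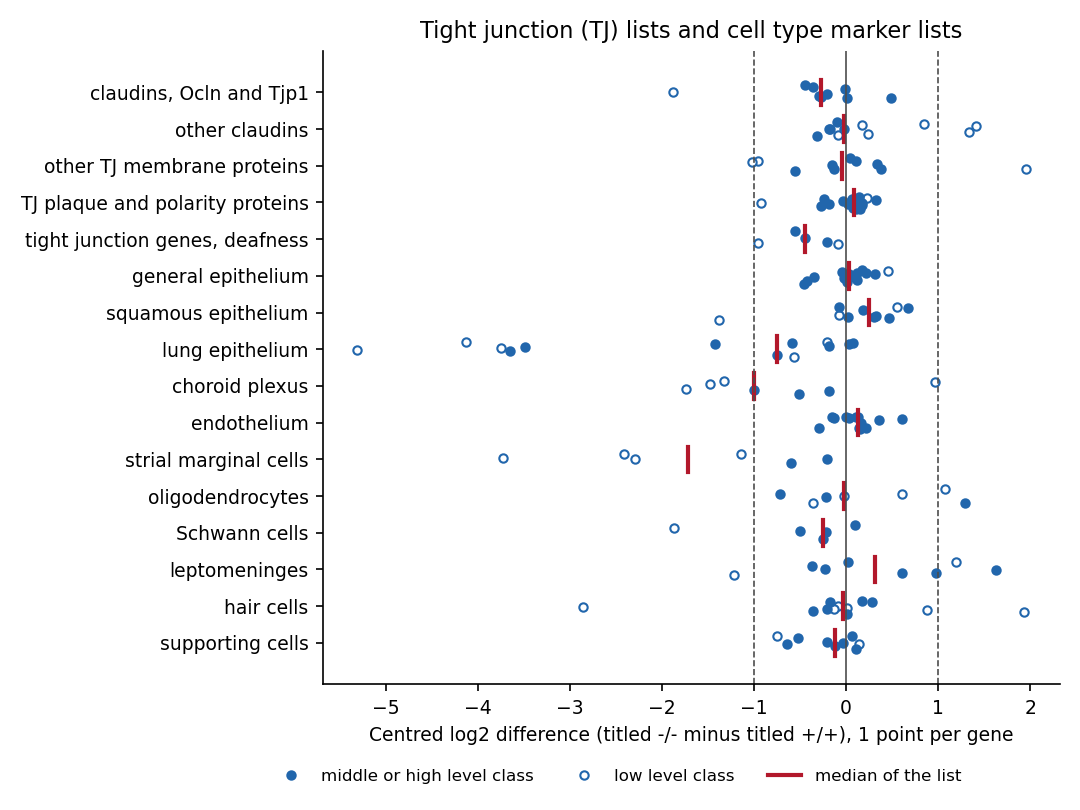
Centred log2 difference of each measured gene in the tight junction lists and the cell type marker lists, with 1 point per gene, open points for genes in the low level class, red bars for list medians and dashed lines at 1 and -1. The medians of lung epithelium, -0.76, choroid plexus, -1.003, and strial marginal cells, -1.72, lie farthest to the left, and those of general epithelium, 0.030, and of plaque and polarity proteins, 0.085, lie close to 0. *Mobp*, listed at 0 on both arrays, sets the median drawn for oligodendrocytes.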

How the data were processed

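Levels of 2 arrays (MOE430A, Affymetrix) from cochleae at E18.5 were analysed, 1 per title. Per the labels each holds 8 cochleae, while the design text gives 3 pools of 2 embryos per genotype. It is unknown if each set of values is from a single hybridisation or combines more. Per probe set, the authors deposited a log2 level. According to their methods the authors labelled cRNA with biotin, hybridised and scanned it. A first analysis with MAS5.0 and RMA showed high variability, and expression levels were then taken from multi-mgMOS of PUMA. Which one produced the deposited values is not stated. Scaling between arrays is not stated, and depth has no meaning for arrays.

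Of 22690 probe sets, 64 controls were left out. Of the rest 20380 carried 1 gene symbol, 691 several and 1555 none, and 20351 matched the RefSeq table of GRCm38.p6. A gene was represented by its strongest probe set. Genes named are the 9 members with every probe set, the other claudins, the deafness list and, of further lists, the 3 of the highest level and those past 1 above the median level, 7.10. *Epcam*, *Sftpb*, *Scgb1a1*, *Scgb3a2*, *Kcne1*, *Pecam1*, *Lsr*, *Igsf5*, *Marveld3*, *Jam2*, *Slc6a13*, *Igf1*, *Pard6b*, *Tjp3*, *Otx2*, further list genes past 1 and genes listed at 0 were named after their values were seen. Members and lists were chosen with earlier results of these data known. No test was possible. Steps were tested on simulated data. Alternatives were no centring, quantile normalization, loess (span 0.3), values below percentile 25 raised to it, the mean over probe sets, no _x_at or _s_at probe sets, genes above the median level and a limit of 2. Python 3.11.15, numpy 2.4.6, pandas 2.3.3, statsmodels 0.14.6 and matplotlib 3.10.9 were used.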

Additional observations from a re-analysis of the deposited data

How the results depend on the processing

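The direction of *Cldn18*, *Cldn5*, *Cldn11*, *Cldn9*, *Cldn3*, *Cldn4* and *Tjp1* held under all 6 alternatives run for single members, of which averaging probe sets and leaving out _x_at and _s_at ones cannot change a gene kept with a single probe set, and their values ranged from 0.47 to 0.51 for *Cldn5*, -0.46 to -0.42 for *Cldn11*, -0.22 to -0.18 for *Cldn9*, -0.38 to -0.27 for *Cldn3*, -0.38 to -0.34 for *Cldn4* and -0.29 to -0.25 for *Tjp1*. *Cldn7* ranged from -0.0047 to 0.030 and *Ocln* from -0.028 to 0.011, and each changed sign once, *Cldn7* with low values raised and *Ocln* without centring. *Cldn18* was -3.45 with its probe sets averaged, 1 of which is listed at 0, and -1.28 with low values raised. The count of members past the limit was 1, but 0 among genes above the median level, where *Cldn18* is not tested, and 0 at a limit of 2. Among genes above the median level, the median of lung epithelium was -0.19 and that of strial marginal cells -0.21, from fewer genes. The median of leptomeninges was -0.070 with probe sets averaged, and the cause was not tested. With low values raised, the median was -0.19 for choroid plexus and -0.72 for strial marginal cells, and above the median level that of choroid plexus was -0.59 and that of oligodendrocytes -0.47. The median of the other claudins turned to 0.075 without _x_at and _s_at probe sets. No paired analysis was possible because each title has 1 array. The number of arrays and the low level of *Cldn18* limit what can be said.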
